A study of Mus musculus with 15 samples.

Results

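Genes that mark or act in tumor macrophages were followed through 15 mouse mammary tumors: Csf1r, Adgre1, Cd68, Mrc1, C1qa, C1qb, C1qc, Arg1, Spp1 and Cd163. They were chosen by name from a list of 10 genes, and 9 of them were found through 1 transcript cluster each that carries a single gene symbol in the platform annotation, among 22180 genes found that way. Spp1 had no such cluster and was not analysed here. All 9 lay above the median of their arrays on at least 5 of the 15 arrays and were among the 14243 genes tested. Values are log2 array values, on which a difference of 1 is a doubling.

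The tumors came from ErbB2KI mice, in which mammary tumors are driven by Erbb2, and were frozen at end burden. Every tumor carried that Erbb2 allele. The groups differed in Ctnnb1, the beta-catenin gene, which was floxed to delete it from epithelial cells of the gland: Ctnnb1 wt/wt (WT), Ctnnb1 fl/wt (HET) and Ctnnb1 fl/fl (HOM), with 5 tumors each. Neither the recombinase and its promoter nor strain and age are stated in the labels. It is also not stated whether each tumor is from its own mouse, so the tests cover variation among tumors, which may in part be within an animal. Macrophages are not epithelial and so were not the intended target. Whether Ctnnb1 was left intact in them is not stated and was not tested.

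Macrophages enter tumors as monocytes or arise from cells resident in the tissue, and they depend on the receptor Csf1r, which binds the growth factors Csf1 and Il34. In mammary tumors they clear dying cells, remodel matrix and vessels and shape the immune response. Mrc1 and Cd163, both scavenger receptors, are usually read as marks of resident or alternatively activated macrophages, whereas Arg1, which splits arginine, is expressed by myeloid cells of several kinds, neutrophils included.

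Epcam, an epithelial marker, lay between 9.31 in HET 1 and 12.3 in HET 5. Ctnnb1 itself went against the label in 2 tumors: it was 11.22 in WT 5 and 12.01 in HOM 5, against 11.71 to 12.10 in WT 1 to WT 4 and 11.15 to 11.58 in HOM 1 to HOM 4. The HET tumors lay between 11.22 and 11.66, across the range of HOM 1 to HOM 4. No Ctnnb1 difference was called: the means were 11.84 ± 0.39 in WT, 11.50 ± 0.19 in HET and 11.48 ± 0.33 in HOM, with adjusted p = 0.448 for HET against WT and 0.983 for HOM against HET, and one that rounded to 1 for HOM against WT. The libraries are called by their labels throughout, and the comparisons were also run without these 2 tumors. HET 1 stood apart by its B and plasma cell markers (mean 9.79, against 6.70 to 7.20 in the other HET tumors) and HET 3 by its skeletal muscle markers (11.3, against 5.87 to 6.74). Array medians lay between 5.54 and 5.73. These are whole tumors, so fewer macrophages and less RNA per macrophage cannot be told apart.

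Promoters are shown for the members that moved together most closely and for a pair that moved together less closely with them. C1qa, C1qc and C1qb lie side by side, and no other gene of the RefSeq table of assembly GRCm38.p6 overlaps their span. The RefSeq promoter table held 6 of the 10 genes: Cd68, Mrc1, C1qb, C1qc, Spp1 and Cd163. The 250 bases before the start of 4 of them follow, 5′ to 3′ on the strand of the gene. Capitals mark each match to AGGAAGT on either strand, the core of the motif of PU.1 and related ETS factors, PU.1 being the master regulator of macrophage genes.
C1qb (GRCm38.p6, chr4:136886201-136886450, minus strand): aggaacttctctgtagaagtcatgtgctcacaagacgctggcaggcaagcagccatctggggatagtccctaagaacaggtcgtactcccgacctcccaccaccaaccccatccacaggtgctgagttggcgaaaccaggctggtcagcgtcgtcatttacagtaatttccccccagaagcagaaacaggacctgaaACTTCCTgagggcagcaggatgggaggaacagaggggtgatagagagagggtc
C1qc (GRCm38.p6, chr4:136892915-136893164, minus strand): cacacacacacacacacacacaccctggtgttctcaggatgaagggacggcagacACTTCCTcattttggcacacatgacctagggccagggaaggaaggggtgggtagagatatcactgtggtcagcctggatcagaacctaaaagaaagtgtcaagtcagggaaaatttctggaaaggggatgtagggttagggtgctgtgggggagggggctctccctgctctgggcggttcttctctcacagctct
Mrc1 (GRCm38.p6, chr2:14229164-14229413, plus strand): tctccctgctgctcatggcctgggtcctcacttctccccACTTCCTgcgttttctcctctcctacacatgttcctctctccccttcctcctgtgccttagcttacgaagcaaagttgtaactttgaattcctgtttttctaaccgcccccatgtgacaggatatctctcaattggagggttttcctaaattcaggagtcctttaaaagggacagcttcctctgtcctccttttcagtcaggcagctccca
Cd163 (GRCm38.p6, chr6:124304401-124304650, plus strand): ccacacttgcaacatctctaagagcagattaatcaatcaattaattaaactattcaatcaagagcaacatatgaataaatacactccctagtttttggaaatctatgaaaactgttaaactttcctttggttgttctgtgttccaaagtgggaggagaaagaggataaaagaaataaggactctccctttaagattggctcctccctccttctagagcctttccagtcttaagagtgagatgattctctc
C1qb, C1qc and Mrc1 each held 1 match, on the strand opposite to the gene, beginning 53, 195 and 211 bases before the start. Of 32851 promoter windows of that length in the table, 7.69% held AGGAAGT on either strand. The match in C1qc was also one to the longer GAGGAAGT, which overlaps the first motif and was found in 2.44% of windows. Spp1 had 2 windows in the table, one with a single match that was to both motifs and one with none. Cd163 and Cd68 had no match in this window. A match is a description of the letters and says nothing of binding in these tumors.

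Csf1r, the receptor through which macrophages receive their survival signal, was 8.35, 9.44, 10.07, 9.59 and 10.07 in WT 1 to WT 5. In HET 1 to HET 5 it was 10.37, 9.79, 8.86, 10.85 and 9.32, and in HOM 1 to HOM 5 it was 9.96, 9.001, 9.09, 10.43 and 9.81. The lowest tumor was WT 1 and the highest HET 4, 5.66-fold apart, and the genotypes overlapped throughout. Means were 9.51 ± 0.70 in WT, 9.84 ± 0.80 in HET and 9.66 ± 0.61 in HOM (SD, n = 5). The differences from WT were 0.33 in HET (95% interval -0.56 to 1.22, adjusted p = 0.748) and 0.15 in HOM (-0.74 to 1.05, adjusted p rounded to 1). The HET difference was 0.0425 without WT 1, 0.0777 without HET 4, 0.20 without HET 1 and 0.58 without HET 3.

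Adgre1 encodes the classical surface marker of mouse macrophages. It was 7.35, 8.76, 9.29, 8.98 and 9.26 in WT 1 to WT 5, 9.09, 8.73, 8.0, 9.82 and 8.50 in HET 1 to HET 5, and 8.82, 8.29, 8.05, 9.55 and 9.17 in HOM 1 to HOM 5. The order of the tumors was close to that of Csf1r, with WT 1 lowest and HET 4 highest again. Its means in WT, HET and HOM were 8.73 ± 0.80, 8.83 ± 0.68 and 8.77 ± 0.62 (SD, n = 5), a spread between genotypes far below that between tumors.

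Cd68, a lysosomal glycoprotein rich in phagocytes, was 9.47, 10.15, 11.83, 10.88 and 10.77 in WT 1 to WT 5. HET 1 to HET 5 had 11.56, 10.84, 10.13, 11.70 and 10.86, and HOM 1 to HOM 5 had 10.74, 10.17, 10.10, 11.07 and 11.51. Its highest value was in WT 3 and its lowest in WT 1, so the WT group alone spanned the whole range of 5.14-fold. The means were 10.62 ± 0.88 in WT, 11.02 ± 0.64 in HET and 10.72 ± 0.60 in HOM (SD, n = 5).

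The 3 C1q genes encode the chains of C1q, the recognition part of the classical complement pathway, which tissue macrophages make themselves. C1qa was 8.73, 10.24, 10.67, 9.9995 and 10.52 in WT 1 to WT 5, 10.42, 9.80, 9.40, 10.62 and 9.82 in HET 1 to HET 5, and 10.15, 9.97, 9.54, 11.09 and 10.51 in HOM 1 to HOM 5. C1qb was 10.07, 11.15, 11.76, 11.45 and 11.89 in WT, 11.72, 11.08, 10.95, 11.86 and 11.45 in HET, and 11.58, 11.15, 10.81, 12.07 and 11.72 in HOM, in the same order. C1qc was 6.39, 8.23, 8.70, 8.83 and 9.39 in WT, 8.84, 8.13, 8.31, 9.42 and 8.74 in HET, and 8.71, 7.70, 7.68, 9.73 and 9.14 in HOM. All 3 were lowest in WT 1 and highest in HOM 4, and in none did the genotypes separate. HET differed from WT by -0.0203 for C1qa, 0.15 for C1qb and 0.38 for C1qc (adjusted p = 0.987, 0.868 and 0.771). In HOM the differences from WT were 0.22, 0.20 and 0.29, with 95% intervals of -0.58 to 1.01, -0.51 to 0.91 and -0.84 to 1.41.

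Mrc1 encodes the mannose receptor CD206, an endocytic receptor also found on lymphatic endothelium. It was 6.72, 9.46, 9.496, 9.39 and 9.43 in WT 1 to WT 5, 11.74, 9.52, 8.84, 11.56 and 6.74 in HET 1 to HET 5, and 9.15, 8.61, 7.60, 10.15 and 10.54 in HOM 1 to HOM 5. WT 2 to WT 5 lay within a narrow band, whereas the HET tumors held the highest value of all and one as low as WT 1. The full range was 32.3-fold, and the SD over 15 tumors, 1.47, was larger than that of 98.2% of tested genes. HET differed from WT by 0.78 (95% interval -1.15 to 2.71, adjusted p = 0.723), by 0.24 without WT 1, 0.26 without HET 1, 0.31 without HET 4 and 1.515 without HET 5.

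Cd163, the receptor that takes up haemoglobin bound to haptoglobin, was dim on these arrays, with only 15.1% of tested genes dimmer. It was 5.04, 6.01, 6.18, 5.98 and 5.51 in WT 1 to WT 5, 8.43, 5.97, 6.25, 7.40 and 5.51 in HET 1 to HET 5, and 5.93, 6.08, 5.29, 6.30 and 6.53 in HOM 1 to HOM 5. HET 1 and HET 4 were above every other tumor, and the other HET tumors lay among the WT and HOM values. The difference of HET from WT was 0.97 (95% interval -0.0210 to 1.96, adjusted p = 0.379). Without HET 1 it was 0.54.

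Arg1 was 10.34, 9.72, 9.35, 10.32 and 10.31 in WT 1 to WT 5. In HET it was 10.61, 12.76, 10.53, 11.99 and 9.39, and in HOM 8.82, 11.09, 10.10, 9.90 and 10.70, in the same order. HET 2 and HET 4 were highest and HOM 1 lowest, a span of 15.3-fold. Unlike the other 8 genes, Arg1 was not low in WT 1, where it lay at 0.0174 above its own median. HET had the higher mean, 11.06 ± 1.32 against 10.01 ± 0.45 in WT and 10.12 ± 0.87 in HOM (SD, n = 5). The difference of 1.05 from WT had a 95% interval of -0.14 to 2.24 (adjusted p = 0.415) and fell to 0.62 without HET 2.

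**Figure D1:**
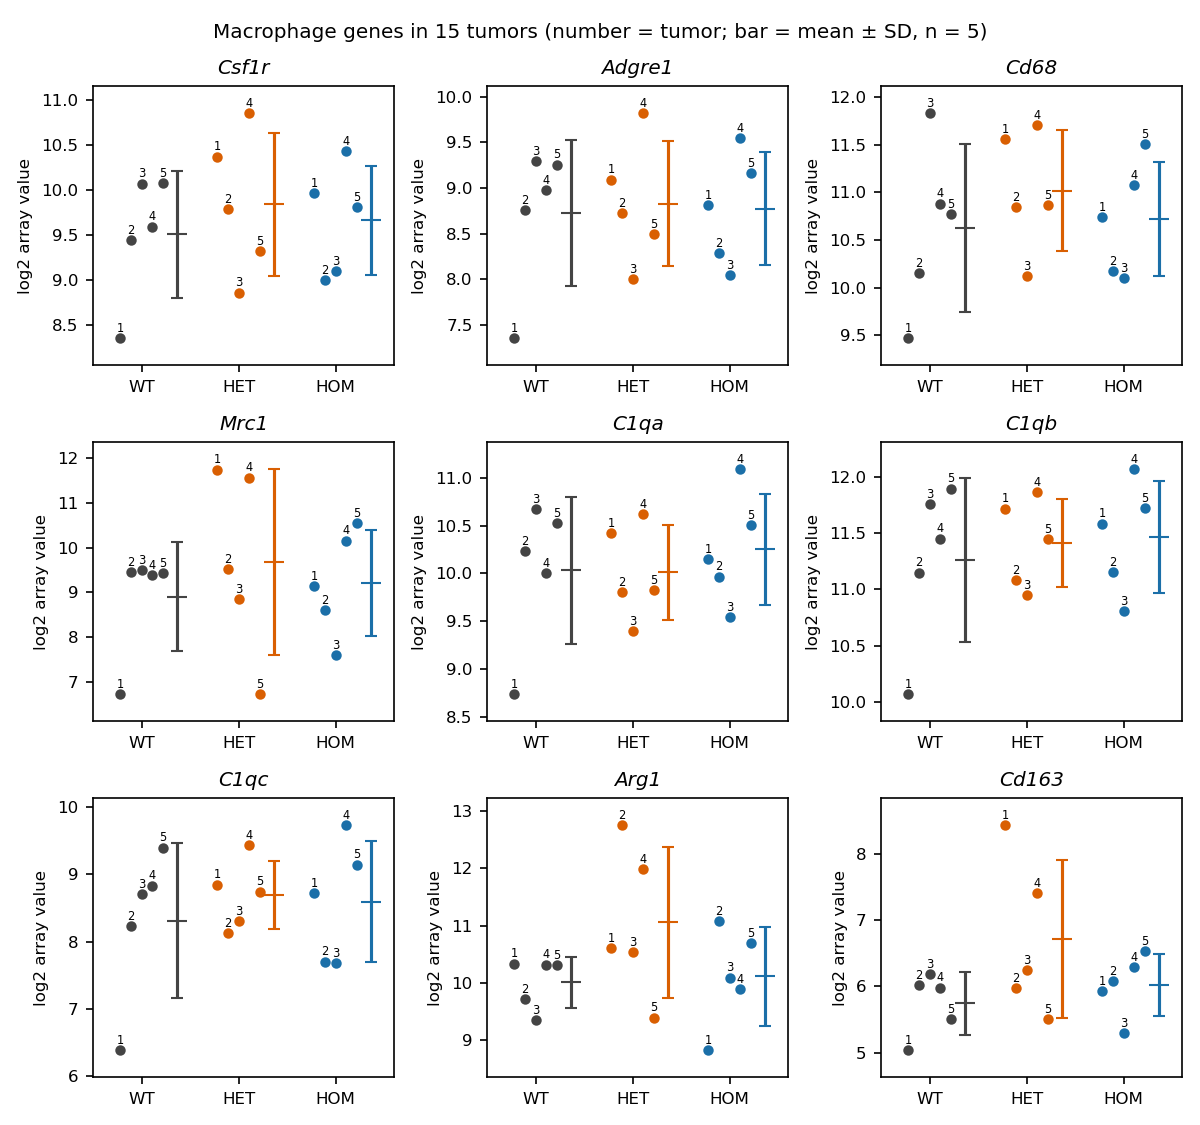
Log2 array value (vertical axis of each panel) of the 9 measured macrophage genes in each tumor, by genotype on the horizontal axis, with the tumor's number above each point and the mean ± SD of 5 tumors beside it. The 3 genotypes overlap in every panel, and WT 1 is the lowest point for every gene but Arg1.

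Read tumor by tumor, 8 of the 9 genes had their lowest value in WT 1, the exception being Arg1. HET 4 had all 9 genes among the 3 highest tumors, and HOM 3 had 7 genes among the 3 lowest and all 9 below their medians. In HET 1 and HOM 5 all 9 genes were above their own medians. HET 5 was mixed: Mrc1 deviated from its median by -2.69 there, whereas Csf1r deviated by -0.46, Cd68 by 0.0225 and C1qc by 0.0252. HET 1 was mixed in another way, with Mrc1 and Cd163 at 2.31 and 2.42 above their medians but C1qc at 0.13.

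**Figure D2:**
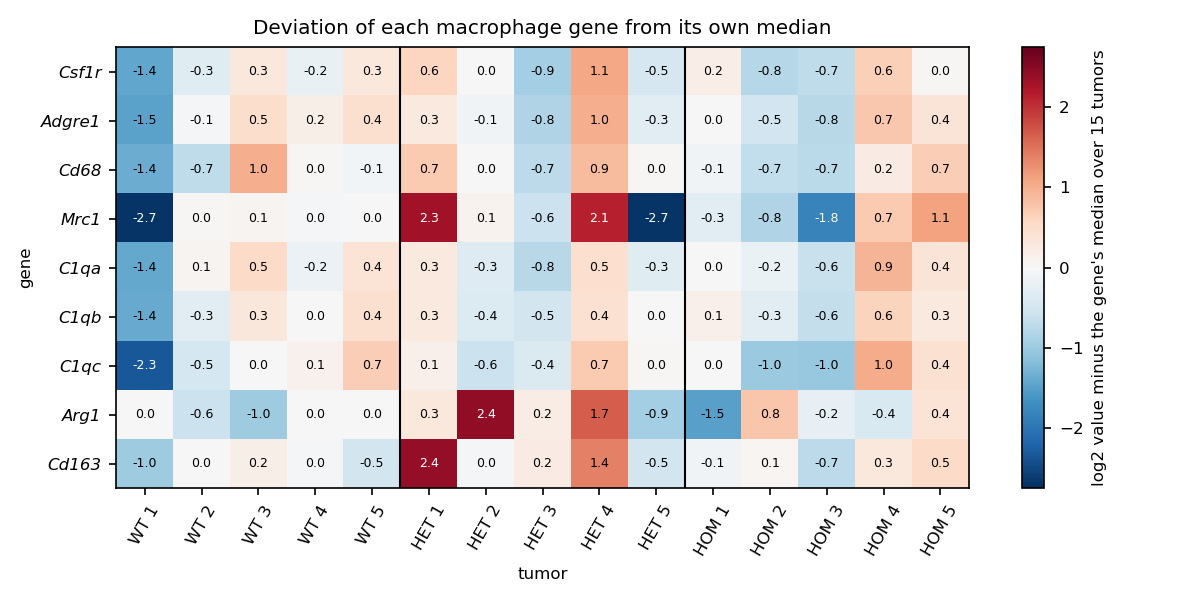
Each macrophage gene (rows) in each tumor (columns, grouped by genotype) as the log2 value minus that gene's median over the 15 tumors, in colour and as a number. WT 1 and HOM 3 are low and HET 4 is high for most genes, while Arg1 (highest in HET 2) and Mrc1 (as low in HET 5 as in WT 1) depart from the others.

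The comparison of the genotypes asks whether loss of 1 or both Ctnnb1 alleles, as labelled, goes with a different macrophage signal. Of the 9 measured genes, 0 passed the limma test in HET against WT (adjusted p from 0.379 for Cd163 to 0.987 for C1qa), beside 0.014% of all genes tested. Also 0 of 9 passed in HOM against WT and 0 in HOM against HET, beside 0% of all genes in both. At an unadjusted p under 0.05 the count was 0 of 9 in each comparison, beside 13.4%, 1.7% and 7.93% of all genes for HET against WT, HOM against WT and HOM against HET. For none of the 9 were 2 genotypes free of overlap, which held for 1.58%, 0.281% and 1.03% of all genes in these comparisons (all HOM tumors above all WT tumors: 0.112%). Without WT 5 and HOM 5 the count past the limma threshold was again 0 of 9 in each comparison, and 3 differences changed sign: C1qa to 0.10 in HET against WT, Cd68 to -0.0604 in HOM against WT and C1qb to -0.00975 in HOM against HET.

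Direction was nearly uniform and the median differences were small, although HET minus WT was 1.05 for Arg1, 0.97 for Cd163 and 0.78 for Mrc1. In HET 8 of 9 means were above WT, with a median difference of 0.38 where the median of all genes was -0.0299, and in HOM 9 of 9 were above WT, with a median of 0.20 beside -0.0117. Both comparisons share the WT tumors, and the 9 genes vary together, so these counts are not independent. Without WT 1, 4 of the 9 were lower in HET than in WT (C1qa by -0.35, Adgre1 by -0.24, C1qb by -0.15 and C1qc by -0.0994), and 7 of the 9 were lower in HOM, from -0.0968 for C1qb to -0.30 for Adgre1. The share of the variance over the tumors that lay between genotype means was 4.39% at the median of these genes. It ran from 0.419% for Adgre1 to 25.1% for Cd163, where the median of all tested genes was 13.3%. The share is not corrected for sampling, which sets group means apart even without a genotype effect. A median below that of all tested genes therefore shows no contribution of genotype.

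HOM against HET gave lower HOM means for 7 of 9 genes, with a median difference of -0.18 beside 0.0139 for all genes. Arg1 differed by -0.94 (95% interval -2.13 to 0.25, adjusted p = 0.685) and Cd163 by -0.69 (-1.68 to 0.30, adjusted p = 0.707). The Arg1 difference was -0.51 without HET 2 and -0.61 without HOM 1, and that of Cd163 was -0.26 without HET 1. For C1qb, whose interval was the narrowest, the difference was 0.0540 (-0.65 to 0.76, adjusted p = 0.976). These intervals leave room for changes of over 1 on the log2 scale in Mrc1, Arg1, C1qc, Csf1r, Cd68, C1qa and Cd163, so the absence of a call does not show equal levels.

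**Figure D3:**
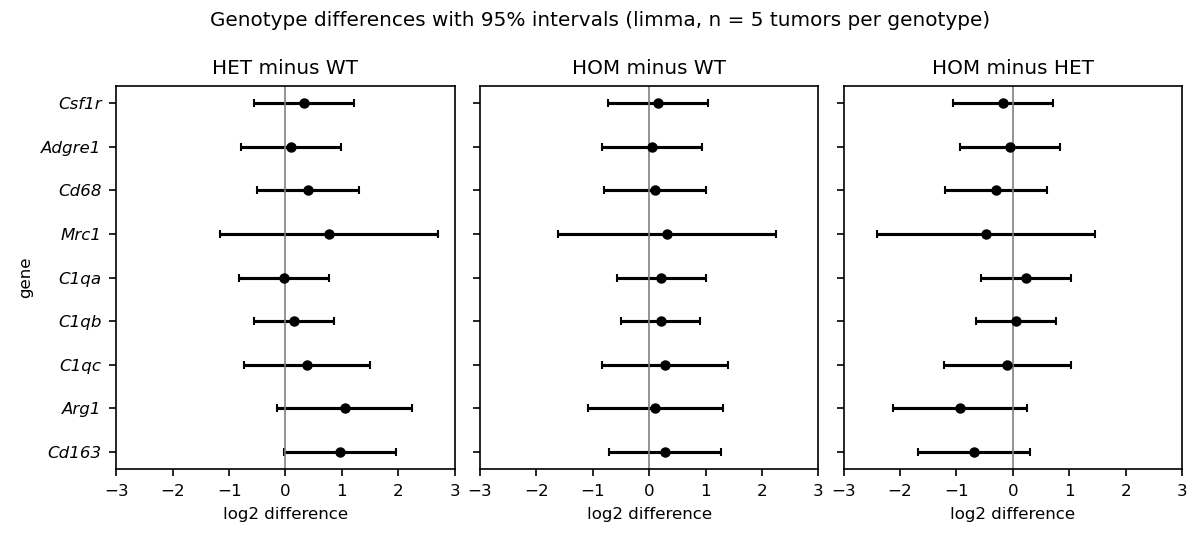
Log2 difference (horizontal axis) of each macrophage gene between genotypes, with its 95% interval from limma, for HET minus WT, HOM minus WT and HOM minus HET. All 27 intervals cross 0, and those of Mrc1 are the widest, from -1.15 to 2.71 for HET minus WT.

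No genotype difference was called, but the genes varied widely between tumors, and most of them varied together. Over the 36 pairs of the 9 genes, Pearson's r across 15 tumors had a median of 0.76, where the median over all pairs of tested genes was 0.011. An r of at least 0.5 was reached by 75% of the 36 pairs and by 8.75% of all gene pairs. After adjustment over the 36 pairs, 25 passed the permutation test, and 26 did so without WT 5 and HOM 5. The 15 pairs among Csf1r, Adgre1, Cd68 and the 3 C1q genes had r from 0.78 to 0.96, and all 15 passed.

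Csf1r and Adgre1, the growth factor receptor and the surface marker, had r = 0.957 (permutation p = 1e-05, the smallest that 100000 resamples can give, adjusted 6e-05) and rho = 0.943 (permutation p = 1e-05, adjusted 6e-05). Without WT 1 and HET 4, the tumors farthest from the Csf1r median, r was 0.918, and with genotype means subtracted it was 0.967. C1qb and C1qc, whose promoters are printed above, had r = 0.961 and rho = 0.900 (permutation p = 1e-05 and adjusted p = 6e-05 for both), and r = 0.902 without WT 1 and HOM 3. C1qa followed C1qb with r = 0.946 and C1qc with r = 0.878. Among the 14242 other tested genes, the one most correlated with C1qc was C1qb, and the one most correlated with C1qa was also C1qb.

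Cd163 stood closer to Mrc1 than to the rest. Its r with Mrc1 was 0.859 (permutation p = 4e-05, adjusted 0.000131; rho = 0.789, permutation p = 0.00076, adjusted 0.0018), and it was 0.872 without WT 1 and HET 5. With Csf1r it was 0.648 (permutation p = 0.00783, adjusted 0.0117; rho = 0.532, permutation p = 0.0442, adjusted 0.0590). That r was 0.457 without WT 1 and HET 4 but 0.769 without HET 1 and HET 3, so it depended on the tumors kept. With Cd68 the r of Cd163 was 0.661, and 0.673 without WT 1 and WT 3. With C1qa, C1qb and C1qc the r of Cd163 was between 0.48 and 0.52, and none of these r passed (adjusted p from 0.0715 to 0.101), although rho passed with C1qa and C1qc (adjusted 0.0444 and 0.0499). Whether 0.859 and 0.648 differ was not tested.

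Arg1 stood apart from all of them. Its 8 pairs had r from -0.10 with C1qb to 0.35 with Mrc1, and 0 passed. With Csf1r it had r = 0.132 (permutation p = 0.639, adjusted 0.742) and rho = -0.0214 (permutation p = 0.943, adjusted 0.963). Without WT 1 and HET 4 that r was -0.118.

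**Figure D4:**
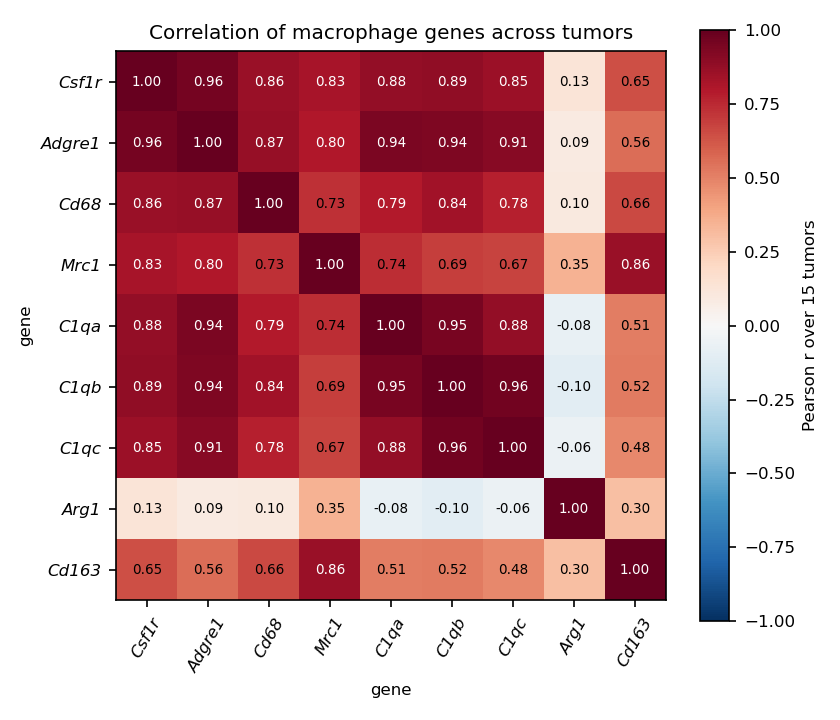
Pearson's r over 15 tumors for each pair of the 9 macrophage genes (rows and columns), in colour from -1 to 1 and as a number. Csf1r, Adgre1, Cd68 and the 3 C1q genes form a block with r of 0.78 or more, Mrc1 and Cd163 pair at 0.86, and Arg1 has no r above 0.35.

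Genes outside the list that followed each pattern were ranked among 14234 tested genes. For Csf1r the 5 with the highest r were Cyth4, Tnfaip8l2, Tlr8, Rab3il1 and Laptm5, with r from 0.949 to 0.968 and an adjusted permutation p of 0.00166 each over the 14234 genes. Tlr8 is an endosomal receptor of myeloid cells and Laptm5 a lysosomal protein of leukocytes, and Laptm5 is also on the fixed lists of macrophage and leukocyte genes. Without WT 1 and HET 4 their r lay between 0.910 and 0.941, and rho over all tumors between 0.918 and 0.968.

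For Cd163 the 5 nearest genes were Gypc, Parvb, Bcat1, Bank1 and Tnfsf11, with r from 0.942 to 0.955 and an adjusted permutation p of 0.00445 each. Bank1 is a B cell adaptor and Tnfsf11 the ligand RANKL. Without HET 1 and HET 4 these r fell to between 0.747 and 0.801, so much of the likeness was carried by those 2 tumors.

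For Arg1 they were Tubb3, Synb, Ltb4r1, Sprr2e and Cpeb2, with r from 0.888 to 0.922 and adjusted permutation p from 0.0328 to 0.0497. Ltb4r1 is the leukotriene B4 receptor of neutrophils and other myeloid cells, and Sprr2e a squamous differentiation gene that ran from 4.26 to 11.3. Without HET 2 and HET 4 the r of these 5 lay between 0.625 and 0.773.

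The means of fixed marker lists, none of which contains any of the 9 genes, were set beside the members in 216 pairs of 1 gene and 1 list, with adjustment over all 216. Csf1r followed the mean of 22 further macrophage genes with r = 0.974 (permutation p = 1e-05, adjusted 0.00018; rho = 0.98, permutation p = 1e-05, adjusted 0.000498), and 0.958 without WT 1 and HET 4. Its r with pan-leukocyte markers was 0.885 and with neutrophil markers 0.38.

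Mrc1 rose and fell with stromal markers and as closely with lists of monocyte and tissue-resident macrophage genes. Its r with the mean of 13 fibroblast markers was 0.929 (permutation p = 2e-05, adjusted 0.00027; rho = 0.921, permutation p = 2e-05, adjusted 0.000498) and 0.902 without HET 4 and HET 5. The fibroblast mean was 6.72 in HET 5, 7.10 in WT 1 and 7.92 in HOM 3, the 3 tumors with the lowest Mrc1, and 11.6 in HET 4. HET 1, with the highest Mrc1, had a fibroblast mean of 9.79, close to the 9.72 of HOM 4, where Mrc1 was 10.15. For comparison, Csf1r had r = 0.79 with the same list and Adgre1 0.80, and these were 0.824 and 0.872 without HET 4 and HET 5. Without those tumors C1qb had r = 0.891 and C1qc 0.885, so the relation was not particular to Mrc1. Mrc1 also followed 12 monocyte genes (r = 0.932, rho = 0.954, and r = 0.919 without WT 1 and HOM 3). It followed 14 genes of tissue-resident macrophages (r = 0.954) and 4 lymphatic endothelial markers (r = 0.913), one of which, Lyve1, is on both lists. The part of lymphatic or other stromal cells in the Mrc1 values was not tested.

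Cd163 likewise followed the tissue-resident list, which includes Folr2, Timd4 and Siglec1 but not Cd163, with r = 0.898 (permutation p = 2e-05, adjusted 0.00027; rho = 0.814, permutation p = 0.00038, adjusted 0.00263) and 0.855 without HET 1 and HET 4. Against the mean of 20 epithelial markers its r was -0.899 (permutation p = 0.00014, adjusted 0.000975; rho = -0.729, permutation p = 0.0031, adjusted 0.00957). That relation rested on HET 1 and HET 4, where the epithelial mean was 7.52 and 9.18, since r was -0.506 without them. It was not particular to Cd163: Mrc1 had r = -0.707 (rho = -0.764) with the epithelial list, and -0.507 without HET 1 and HET 4. Nor was the tissue-resident list the only one so close to Cd163, which had r = 0.890 with lymphatic endothelial and 0.870 with osteoclast markers.

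Arg1 followed neutrophil markers and a list of lipid-associated macrophage genes, a list that most of the other measured macrophage genes did not follow. The neutrophil list was one of 18 genes, 16 of them tested, and includes S100a8, Retnlg and Mmp8. The r of Arg1 with it was 0.724 (permutation p = 0.00264, adjusted 0.00731; rho = 0.661, permutation p = 0.00883, adjusted 0.0193), 0.682 without HET 1 and HET 2, and 0.644 with genotype means subtracted. With the 16 lipid-associated macrophage genes it had r = 0.609 (permutation p = 0.0162, adjusted 0.0295; rho = 0.718, permutation p = 0.0035, adjusted 0.0101) and 0.427 without HET 4 and HOM 2. Neither relation was particular to Arg1. With neutrophil markers Cd163 had r = 0.687 (rho = 0.546) and Mrc1 0.577 (rho = 0.521). With the lipid-associated list Mrc1 had r = 0.642 and Cd163 0.631, and 0.668 and 0.604 without HET 4 and HOM 2. The r of that list was lower with Csf1r (0.48), Adgre1 (0.39), Cd68 (0.31), C1qa (0.38), C1qb (0.28) and C1qc (0.21). None of these passed, with adjusted permutation p from 0.108 to 0.501. Whether the list reports a macrophage state in these tumors was not tested. HET 2, highest in Arg1, had a neutrophil mean of 10.3, and HET 1 had one as high with Arg1 at 10.61. Against the 22 further macrophage genes the r of Arg1 was 0.211 (permutation p = 0.448, adjusted 0.504; rho = 0.0929, permutation p = 0.743, adjusted 0.775) and against 12 hypoxia genes 0.364 (permutation p = 0.184, adjusted 0.252; rho = 0.379, permutation p = 0.166, adjusted 0.234). Neutrophil means ranged from 6.30 to 7.56 in WT, 7.56 to 10.4 in HET and 6.90 to 8.69 in HOM, and all 16 of the 16 tested had their HET mean above their WT mean, with 0 past the threshold and 13 of 16 at an unadjusted p under 0.05, beside the 13.4% of all genes. For Retnlg the HET mean of 9.26 ± 1.61 compared with 5.38 ± 0.94 in WT (adjusted p = 0.170). The part of neutrophils in the Arg1 difference was not tested.

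**Figure D5:**
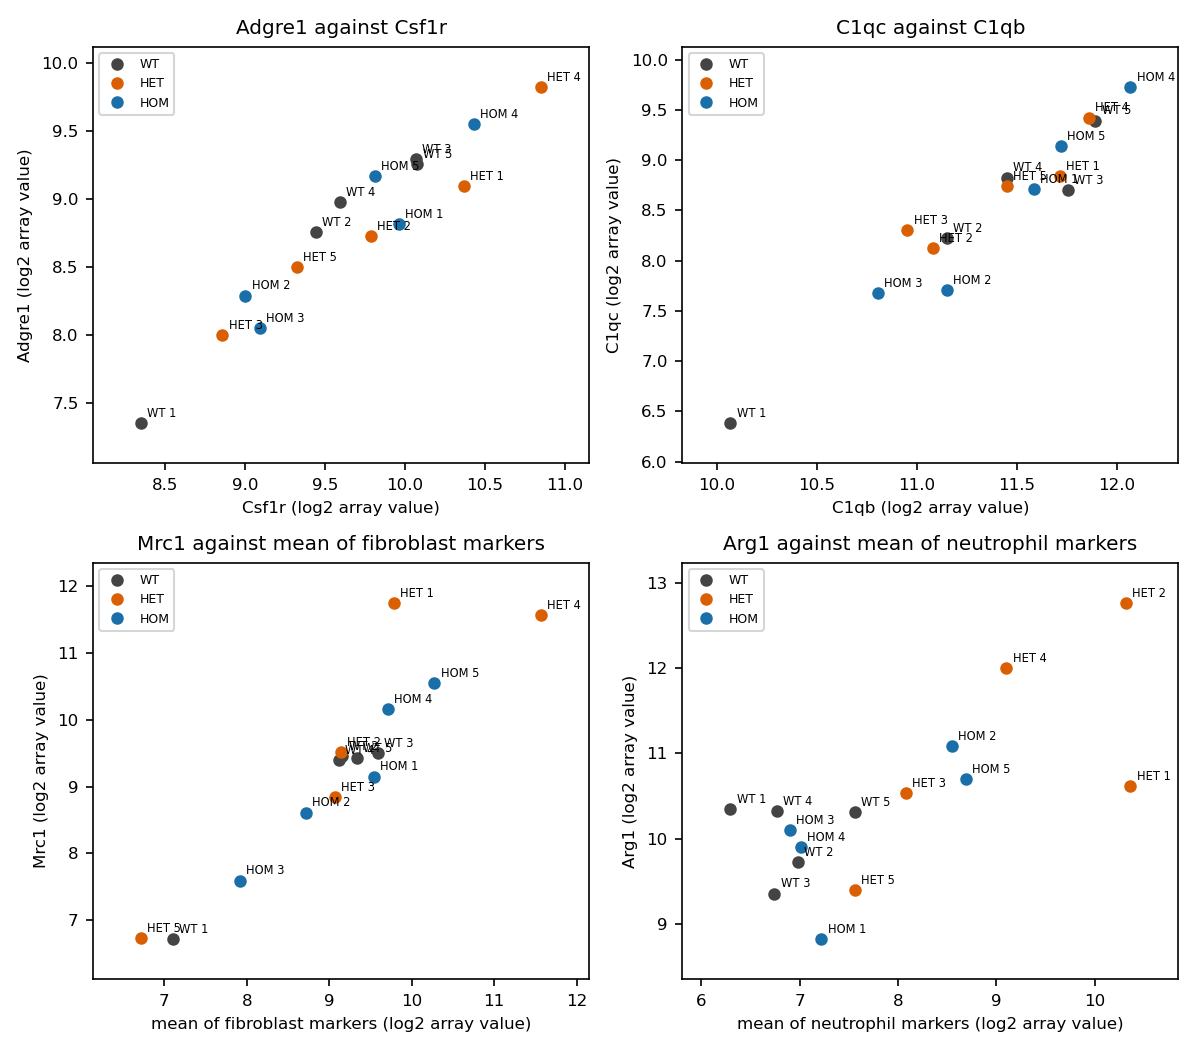
Each point is 1 of the 15 tumors, coloured by genotype, on log2 axes: Adgre1 against Csf1r, C1qc against C1qb, Mrc1 against the mean of 13 fibroblast markers and Arg1 against the mean of 16 neutrophil markers. WT 1 is lowest on both axes in the Csf1r and C1qb panels. In the Mrc1 panel HET 5 has the lowest fibroblast mean and HET 1 lies above tumors of a like mean, and in the Arg1 panel HET 2 and HET 4 are highest.

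The growth factors that act through Csf1r were measured in the same tumors. Csf1 was lowest in WT 1, at 8.34, and highest in HET 5, at 10.1, and its means were 9.09 ± 0.48 in WT, 9.57 ± 0.52 in HET and 9.06 ± 0.38 in HOM. Il34, the second ligand, was also lowest in WT 1 (6.17) and highest in HET 5 (9.35). HET 5 thus had the highest values of both ligands and a Csf1r value of 9.32, below the Csf1r median of 9.79. Csf2 lay between 4.35 and 5.24, below the median of each array, and was not tested. The monocyte attractant Ccl2 was 11.1 in HOM 5, 11.0 in HET 4 and 10.7 in HET 1, and between 7.71 and 9.34 in the others. No genotype difference passed for Csf1, Il34 or Ccl2 (adjusted p = 0.452, 0.575 and 0.516 for HET against WT). Of the 14 tested signals in the list 10 had a higher HET mean than WT and 0 passed in any comparison. Means of further genes are given as WT, HET and HOM in that order (± SD, n = 5), with the adjusted p of HET against WT from limma unless stated. The fractalkine gene Cx3cl1 was 9.49 ± 0.96, 8.41 ± 0.77 and 9.66 ± 0.35 (adjusted p = 0.313), and the chemokine gene Ccl3 8.79 ± 0.98, 10.48 ± 0.73 and 9.58 ± 1.39 (adjusted p = 0.290).

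Among the further macrophage genes, 22 of 24 were tested, and 0 passed in any comparison. In HET 15 had a higher and 7 a lower mean than in WT, with a median difference of 0.34. Itgam, the integrin CD11b that neutrophils also carry, was 8.23 ± 0.56, 9.63 ± 1.07 and 8.69 ± 0.59 (adjusted p = 0.245). The Fc receptor gene Fcgr3 was 6.44 ± 0.70, 7.45 ± 0.76 and 6.94 ± 0.54 (adjusted p = 0.304). Of 14 tested tissue-resident genes 12 had a higher HET mean and 0 passed. Gas6, a bridging ligand for the uptake of dying cells, was one of the 2 that were lower, with 11.27 ± 1.29, 10.43 ± 0.79 and 11.49 ± 0.12 (adjusted p = 0.478), and the scavenger receptor gene Stab1 was 8.34 ± 0.62, 9.23 ± 1.07 and 8.64 ± 0.62 (adjusted p = 0.415). Of 12 tested monocyte genes 10 had a higher HET mean and 0 passed. Treml4 was 6.72 ± 0.47, 7.77 ± 1.07 and 6.86 ± 0.53 (adjusted p = 0.327), and the transcription factor gene Cebpb was 9.58 ± 0.31, 9.22 ± 0.35 and 9.65 ± 0.16 (adjusted p = 0.395).

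Activation genes were likewise not called. Of 13 tested classical activation genes 10 had a higher HET mean than WT, with a median difference of 0.42 and 0 past the threshold. At an unadjusted limma p under 0.05 the count was 6 of 13, beside 13.4% of all genes. In each other pathway list that count was from 0 to 2. The inflammatory cytokine gene Tnf was 7.79 ± 0.65, 8.94 ± 0.56 and 8.24 ± 0.27 (adjusted p = 0.222). Nos2, the nitric oxide synthase that competes with Arg1 for arginine, was 6.504 ± 0.74, 8.13 ± 1.26 and 6.70 ± 0.71 (adjusted p = 0.257). Of 13 tested alternative activation genes 9 had a higher HET mean, with a median difference of 0.40 and 0 past the threshold. The transcription factor gene Klf4 was 7.89 ± 0.55, 9.14 ± 0.75 and 8.13 ± 0.70 (adjusted p = 0.242), and the matrix protein gene Tgfbi 10.52 ± 1.12, 11.71 ± 0.64 and 11.01 ± 0.33 (adjusted p = 0.293). Of 16 lipid-associated macrophage genes 11 had a higher HET mean, with 0 past the threshold. The lysosomal lipase gene Lipa was 11.10 ± 0.36, 10.66 ± 0.73 and 11.44 ± 0.36 (adjusted p = 0.537), and Mmp12, the macrophage elastase, 8.61 ± 0.89, 9.36 ± 0.51 and 9.45 ± 0.55 (adjusted p = 0.413).

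Pathways in which the members act were also described. Of 11 tested complement genes besides C1q, 7 had a higher HET mean than WT and 0 passed. Cd59a, an inhibitor of the membrane attack complex, was 10.38 ± 0.38, 9.78 ± 0.67 and 10.53 ± 0.13 (adjusted p = 0.368), and the anaphylatoxin receptor gene C5ar1 6.07 ± 0.78, 7.07 ± 0.73 and 6.55 ± 0.71 (adjusted p = 0.351). Of 13 arginine metabolism genes 7 had a higher HET mean and 0 passed. Odc1, which makes polyamines from the ornithine that arginase yields, was 9.11 ± 0.39, 10.33 ± 0.996 and 9.49 ± 0.42 (adjusted p = 0.242), and the arginine transporter gene Slc7a1 9.32 ± 0.58, 9.04 ± 0.10 and 8.68 ± 0.42 (adjusted p = 0.636). Of 10 osteopontin receptor genes 5 had a higher and 5 a lower HET mean, and 0 passed. The integrin gene Itga8 was 10.25 ± 0.87, 8.60 ± 1.44 and 9.94 ± 0.27 (adjusted p = 0.266), and Itga5 8.61 ± 0.83, 9.77 ± 1.56 and 8.85 ± 1.02 (adjusted p = 0.461). Of 12 tested hypoxia genes 8 had a higher HET mean and 0 passed. For the glycolytic genes Hk2 and Pfkfb3 the larger differences were those of HOM from HET: Hk2 was 8.52 ± 0.41, 8.64 ± 0.32 and 7.99 ± 0.27 (adjusted p = 0.587 for HOM against HET), and Pfkfb3 8.15 ± 0.60, 8.30 ± 0.52 and 7.55 ± 0.38 (adjusted p = 0.587 for HOM against HET).

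Markers of other cells gave no call either. Pan-leukocyte markers had means of 9.20 ± 0.68 in HET, 8.58 ± 0.49 in WT and 8.72 ± 0.44 in HOM, with 12 of 13 members higher in HET than in WT. Taking this mean as a covariate, the HET differences of Csf1r, Adgre1, Cd68, Mrc1, C1qb and C1qc from WT turned to between -0.29 and -0.64, with none past the threshold. The mean itself followed Csf1r (r = 0.885), Cd68 (0.849) and Adgre1 (0.801), so the covariate also takes out macrophage signal. The change of sign therefore does not show fewer macrophages in HET. Fibroblast means were 9.26 ± 1.74, 8.86 ± 0.9996 and 9.23 ± 0.92 in HET, WT and HOM, and endothelial means 8.46 ± 1.03, 8.13 ± 0.43 and 8.31 ± 0.75. Dendritic cell markers, in the same order, were 8.08 ± 0.17, 8.25 ± 0.36 and 8.22 ± 0.32. They followed C1qa with r = 0.863 (permutation p = 1e-05, adjusted 0.00018; rho = 0.921, permutation p = 2e-05, adjusted 0.000498), and with r = 0.900 without WT 3 and HOM 4. This relation was not particular to C1qa. With the same list Adgre1 had r = 0.782, C1qb 0.764 and Csf1r 0.713, and 0.885, 0.838 and 0.811 without WT 3 and HOM 4. T and NK cell, B and plasma cell, mast cell, skeletal muscle, adipocyte and osteoclast lists had 11, 10, 5, 9, 12 and 8 tested members, with 0 past the threshold in each comparison. Epithelial means were 9.58 ± 1.28 in HET, 10.33 ± 0.38 in WT and 10.38 ± 0.34 in HOM, lowest in HET 1, where Cd163 and Mrc1 were highest. Of the 20 epithelial markers 19 were lower in HET than in WT, and all 20 were higher in HOM than in HET, with 0 past the threshold. At an unadjusted limma p under 0.05 there were 4 of 20 in each of these comparisons, beside 13.4% and 7.93% of all genes.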

How the data were processed

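Total RNA of each tumor was hybridised to 1 Affymetrix whole-transcript array after labelling of 100 ng, per the labels' protocols. The deposited table covers 41345 transcript clusters, whose values were taken as log2 intensities because the values ran from 1.06 to 13.9 with similar medians. Expression Console and Transcriptome Analysis Console (Affymetrix) were used per the submitters' processing notes. How background and normalization were handled is not given in the sources used here. No detection call was available, and the number of arrays limits the precision.

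Clusters were named through the platform annotation, keeping those with 1 symbol (23521) and the brightest per gene. A gene was tested when above its array's median on at least 5 arrays. One model held the 3 genotypes in limma 3.58.1 under R 4.3.3 (lmFit, eBayes). It had 12 residual degrees of freedom, its tests were two-sided, and Benjamini-Hochberg adjustment ran over 14243 genes with a threshold of 0.05. Adjusted p-values of genotype differences are from this fit. Correlations used two-sided permutation tests of 100000 resamples (Python 3.11.15, numpy 2.4.6). The absence of Spp1 left 36 pairs. Both scripts were tested on simulated data. The genes named were the members, Ctnnb1, Csf1, Il34, Csf2 and Ccl2, genes of each list with the smallest limma F p (the rule allowed 3, and values are given for the first 2 of each pathway list and the first neutrophil marker), and the 5 nearest genes of Csf1r, Arg1 and Cd163. Epcam, and list genes given without a value, were named outside this rule. Replicate numbers follow accession order. Members and lists were chosen with earlier results of these data known. Alternatives were other filters, renewed quantile normalization, all clusters of a gene, array weights, 2 genotypes only, a pan-leukocyte covariate and tumors left out.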

Additional observations from a re-analysis of the deposited data

Results flagged for a closer look

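In a group of 5 tumors, a tumor is listed here when its gap to the nearest of the others, divided by the range of the group, was above 0.71. Chance gives such a gap in about 1 in 20 groups. It was found in 2 of 27 groups for the macrophage genes and in 7 of 72 groups for the marker lists.

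Adgre1 in WT 1 was 7.35, with the nearest WT tumor at 8.76. Mrc1 in WT 1 was 6.72, with the nearest at 9.39. WT 1 was also below the other WT tumors in the mean of classical activation genes (6.31, nearest 7.48), monocyte genes (7.43, nearest 8.47), osteopontin receptor genes (8.23, nearest 9.35) and fibroblast markers (7.10, nearest 9.12). The mean of T and NK cell markers in WT 3 was 7.60, with the nearest at 6.47. The mean of B and plasma cell markers in HET 1 was 9.79, with the nearest at 7.20, and that of skeletal muscle markers in HET 3 was 11.3, with the nearest at 6.74.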

How the results depend on the processing

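The count of macrophage genes past the limma threshold was 0 in every comparison under every alternative run. The 75th percentile filter left 8 of them, without Cd163. The lowest adjusted p of a member over the alternatives was 0.158 for HET against WT, 0.298 for HOM against HET and 0.999 for HOM against WT. Correlated pairs numbered 25, and from 24 to 28 with a tumor left out in turn except WT 1, without which there were 23. Other settings gave 25 to 28.

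Besides single tumors left out, 4 settings changed signs of differences. With array weights, HET minus WT was -0.17 for Adgre1, -0.13 for C1qb and -0.0502 for C1qc, HOM minus WT was -0.0622 for Adgre1, -0.12 for Arg1 and -0.0428 for Cd68, and HOM minus HET was 0.11 for Adgre1, 0.18 for C1qc and 0.0419 for Csf1r. With the pan-leukocyte mean as a covariate, HET minus WT was -0.60 for Adgre1, -0.36 for C1qb, -0.34 for C1qc, -0.29 for Cd68, -0.40 for Csf1r and -0.64 for Mrc1. HOM minus WT was then -0.11 for Adgre1, -0.0549 for Cd68, -0.00817 for Csf1r and -0.0057 for Mrc1, and HOM minus HET was 0.49 for Adgre1, 0.46 for C1qc, 0.24 for Cd68, 0.39 for Csf1r and 0.63 for Mrc1. Without WT 5 and HOM 5, C1qa was 0.10 in HET minus WT, Cd68 -0.0604 in HOM minus WT and C1qb -0.00975 in HOM minus HET. Without HET 1 and HET 3, C1qa was 0.0485 in HET minus WT. The cause was not tested.

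With each tumor left out in turn, HET minus WT ran from -0.24 to 0.31 for Adgre1, -0.35 to 0.14 for C1qa, -0.15 to 0.31 for C1qb, -0.0994 to 0.65 for C1qc, 0.62 to 1.46 for Arg1, 0.54 to 1.27 for Cd163, 0.11 to 0.70 for Cd68, 0.0425 to 0.58 for Csf1r and 0.24 to 1.515 for Mrc1. HOM minus WT ran from -0.30 to 0.23 for Adgre1, -0.13 to 0.43 for Arg1, -0.11 to 0.40 for C1qa, -0.0968 to 0.37 for C1qb, -0.19 to 0.56 for C1qc, -0.19 to 0.40 for Cd68, -0.13 to 0.32 for Csf1r, -0.23 to 0.71 for Mrc1 and 0.10 to 0.46 for Cd163. HOM minus HET ran from -0.26 to 0.20 for Adgre1, -0.0965 to 0.22 for C1qb, -0.38 to 0.13 for C1qc, -0.42 to 0.0767 for Csf1r, -1.21 to 0.0449 for Mrc1, -1.35 to -0.51 for Arg1, 0.0291 to 0.42 for C1qa, -0.99 to -0.26 for Cd163 and -0.52 to -0.13 for Cd68.

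Over all genes, 2 were past the threshold for HET against WT. That count was 1 with renewed quantile normalization or with only the 2 genotypes fitted, 0 with the 75th percentile filter, array weights or the covariate, 10 without HET 1 and HET 3, and between 1 and 48 with each tumor left out, the highest without HET 3. Against 0 in the other comparisons, without WT 5 and HOM 5 the counts were 4 (HOM against WT) and 6 (HOM against HET), and 1 for HOM against HET without HET 1 and HET 3. No paired analysis was possible because the labels give the genotypes no shared replicate numbers. The sources give no detection calls, so signal over background is unknown, which limits the reading of dim genes such as Cd163.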
